A study of Caenorhabditis elegans with 2 samples.

Results

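The nuclear hormone receptor genes with nhr symbols on chromosome V of Caenorhabditis elegans were examined as a group in a map of the binding of one receptor of the same family, NHR-28. Members were all protein-coding genes on V whose symbol is nhr followed by a number in the WBcel235 annotation. This rule uses no measured value, but the group was chosen for study with earlier results of these data known. There were 167 of them among 19985 protein-coding genes in all and 4994 on V, which is 3.34% of the genes of that chromosome. The genome holds 269 such genes, and V carries 62.1% of them, against 33 on IV, 23 on I, 23 on X, 15 on II and 8 on III.

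Nuclear receptors are transcription factors with a zinc-finger domain that binds DNA and a second domain that can bind a small lipophilic ligand, so that a metabolite, hormone or foreign compound can change the expression of target genes. Nematodes carry an unusually large number of them. Most of the extra genes are thought to descend from a receptor of the HNF4 type and to have multiplied in part by tandem duplication, which leaves neighbouring copies along a chromosome. Receptors can also control the genes of other receptors.

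The study measured by chromatin immunoprecipitation and sequencing (ChIP-seq), in which DNA bound by a tagged protein is recovered and sequenced, where eGFP-tagged NHR-28 sat on the genome. The worms were mixed-stage embryos of both sexes from strain OP317, collected as whole organisms. They carry unc-119(ed3), a mutation on chromosome III, together with wgIs317, an integrated transgene that holds nhr-28 fused to eGFP, so the protein mapped is the product of a transgene and whether the native copy remained is not given in the sources used here. There were 2 libraries, biological replicates 1 and 2, both of the same single group, made from fragments of 150 to 350 bp.

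With 1 group there is no contrast between conditions, and the comparisons are between genes, lists and replicates. No expression was measured, so the labelled stage could not be set against marker genes, and a mixed whole-embryo sample cannot tell apart few cells with strong binding and many cells with weak binding. The authors deposited 4 lists of regions on the ce11 build. The first holds 238 regions that passed a test of the irreproducible discovery rate (IDR), which is based on how consistently regions rank. The others are a relaxed list of 30000 regions from both replicates pooled, and relaxed lists of 14746 regions for replicate 1 and 4556 for replicate 2. The relaxed lists hold background as well as peaks by design. Each region has a summit, the point of highest signal, and a signal value that the authors gave for how strong it is, on a scale that differs between lists, so that levels are compared within 1 list only. The depth of the libraries is unknown. A gene was given the strongest region whose summit lay within 1000 bp of one of its annotated 5' ends, and this assignment by distance does not show that the region acts on that gene. At the 5' end of nhr-28 itself, the tagged gene, none of the 4 lists had a region.

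An IDR region lay at 5 of the 167 receptor genes on V: nhr-237, nhr-256, nhr-238, nhr-86 and nhr-12. NHR-86 is known as a receptor that senses a bacterial metabolite and controls genes of intestinal innate immunity, and the proteins of the other 4 are less well described. The share was 2.99% (95% Wilson interval 1.29 to 6.82%), and the background was 0.921% of all protein-coding genes and 0.621% of those on V. Intervals on shares cover counting error only, and neighbouring receptor genes are not independent of each other. All 5 summits lay upstream of the gene, in intergenic DNA, with no tRNA or snoRNA gene within 200 bp of any of them. Of the 30 IDR regions on V, 5 (16.7%) stood at a member. Members make up 3.34% of the genes on V, but that is a share of genes and the other a share of regions. A region need not lie at a gene and can lie at several, so these shares are not directly comparable.

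The 10 strongest different regions at members are shown because all 5 IDR regions and the 5 regions just below them are among them, each as 151 bases centred on the pooled summit. They are read 5' to 3' on the strand of the first gene named, from the RefSeq genome sequence of WBcel235, the same assembly as ce11. Capitals mark ACTACA, or its reverse complement TGTAGT.
nhr-237, chrV:1627347-1627497, minus strand: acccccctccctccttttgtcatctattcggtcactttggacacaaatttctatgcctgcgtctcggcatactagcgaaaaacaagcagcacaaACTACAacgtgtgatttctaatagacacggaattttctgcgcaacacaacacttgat
nhr-256, chrV:1743528-1743678, plus strand: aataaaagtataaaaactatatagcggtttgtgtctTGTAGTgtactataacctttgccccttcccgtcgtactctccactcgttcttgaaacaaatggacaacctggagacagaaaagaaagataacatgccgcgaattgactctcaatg
nhr-238, chrV:1629422-1629572, minus strand: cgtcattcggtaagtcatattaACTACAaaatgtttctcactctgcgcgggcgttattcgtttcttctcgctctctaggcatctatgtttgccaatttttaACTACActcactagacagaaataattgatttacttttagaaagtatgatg
nhr-86, chrV:2066898-2067048, minus strand: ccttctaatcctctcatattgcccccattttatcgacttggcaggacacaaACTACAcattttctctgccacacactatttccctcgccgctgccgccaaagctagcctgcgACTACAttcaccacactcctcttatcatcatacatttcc
nhr-12, chrV:10084176-10084326, minus strand: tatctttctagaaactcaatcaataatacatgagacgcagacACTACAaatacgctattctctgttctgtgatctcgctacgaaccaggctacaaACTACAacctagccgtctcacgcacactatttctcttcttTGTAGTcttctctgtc
nhr-142, chrV:5790572-5790722, minus strand: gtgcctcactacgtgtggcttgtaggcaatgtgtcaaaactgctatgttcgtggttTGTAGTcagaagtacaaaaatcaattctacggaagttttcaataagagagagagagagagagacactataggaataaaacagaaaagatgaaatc
nhr-57, chrV:4131447-4131597, plus strand: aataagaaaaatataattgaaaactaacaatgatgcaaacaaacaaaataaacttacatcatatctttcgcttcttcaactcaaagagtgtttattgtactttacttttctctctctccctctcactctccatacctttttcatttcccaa
nhr-209, chrV:12098186-12098336, plus strand: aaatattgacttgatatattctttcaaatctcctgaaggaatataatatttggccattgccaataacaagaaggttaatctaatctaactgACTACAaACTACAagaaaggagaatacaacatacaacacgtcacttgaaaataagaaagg
nhr-201 and nhr-202, chrV:464897-465047, plus strand: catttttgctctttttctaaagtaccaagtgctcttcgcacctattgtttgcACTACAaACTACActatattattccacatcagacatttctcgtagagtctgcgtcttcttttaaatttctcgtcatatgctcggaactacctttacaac
nhr-148 and nhr-263, chrV:7342916-7343066, plus strand: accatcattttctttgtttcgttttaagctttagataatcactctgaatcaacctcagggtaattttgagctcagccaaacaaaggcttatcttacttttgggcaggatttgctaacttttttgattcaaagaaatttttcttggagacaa

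The word ACTACA was noticed while these sequences were read, after the data had been seen, and its presence in them is therefore a description and no test. It was searched on both strands within 100 bp of the summit, in windows of 201 bases. It lay in all 5 IDR regions at members, and it was the only one of the 2080 different words of 6 letters to do so, while 9 other words lay in 4 of the 5. In the printed sequences it occurs once at nhr-237 and at nhr-256, in 2 copies at nhr-238 and nhr-86, and in 3 copies at nhr-12. At nhr-209, and at the region shared by nhr-201 and nhr-202, 2 copies stand in a row with 1 base between them. The sequences at nhr-57 and at the region shared by nhr-148 and nhr-263 have none.

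Of the 10 strongest regions at members, 8 held ACTACA, and of the other 84 it was in 8 (9.52%). Among all 30000 pooled regions 10.5% held it, among pooled regions on V 10.8%, and among the 211 nuclear IDR regions not at a member 14.7%. At members whose region ranked below the IDR list but within the first 1000 of the pooled list, 4 of 7 regions held it, against 14.6% of the 754 other regions of those ranks. Below that, to rank 5000, it was 1 of 19 against 10.7%, and beyond rank 5000 it was 6 of 63 (9.52%) against 10.3%. The word was picked from the strongest of these regions, so its shares there are set by that choice and are not to be compared with those at weaker regions. In the flanks of the 5 IDR regions, 500 to 700 bp to either side of the summit, 1 of 10 windows held the word. In promoter windows, from 250 bases before to 50 after the 5' end, 18.0% of members and 12.8% of all protein-coding genes held it. Members' promoter windows include sequence from which the word was picked, so their share is in part set by that choice. The contrast between flanks and summits is set by it too, and neither is a separate test.

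The other words searched, known from other work, were AGGTCA, the classical core element of nuclear receptors, AGTCCA, a related core element, and GAGAGA, a simple repeat common in nematode promoters. None of the 5 IDR regions at members held AGGTCA or AGTCCA within 100 bp of the summit, while 10.2% of all 216 nuclear IDR regions held AGGTCA and 4.63% held AGTCCA. Over the 94 pooled regions at members AGGTCA was in 2 (2.13%) against 5.11% of the pooled list, and AGTCCA in 6 (6.38%) against 4.48%. GAGAGA was in 1 of the 5 IDR regions at members, but in 23 of the 94 pooled regions (24.5%), against 13.3% of the pooled list and 12.2% of its regions on V. Its share at members stayed above that of other regions at the weakest ranks, with 14 of 63 (22.2%) against 11.5% beyond rank 5000. For every word searched the sets are unlike. Regions at members all lie within 1000 bp of a 5' end, while the other regions and the pooled list include regions away from any. Whether location or gene family underlies such gaps was not tested. In the flanks of the regions at members below the IDR list GAGAGA was in 10.7% of windows, against 10.6% at other regions. Promoter windows of members held GAGAGA in 28.1% of cases, against 21.8% of all protein-coding genes. For AGGTCA it was 10.2% against 8.27%, and for AGTCCA 8.98% against 5.57%, so the low share of AGGTCA at summits was not seen in members' promoter windows. The GC content of the 201-base windows had a median of 35.1% at members, close to the 35.3% of the whole pooled list. In the 5 IDR regions at members it lay between 35.3 and 44.8%, with a median of 40.8%, against a median of 44.3% over all 216 nuclear IDR regions.

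The strongest region at a member was that of nhr-237 (WBGene00021610, chrV:1625189-1626820, minus strand), at chrV:1627260-1627583. Its signal was 177 in the pooled list, rank 15 of 30000, with 111 in replicate 1 and 66.2 in replicate 2. The summits of both replicates lay 602 and 605 bp upstream of the 5' end. The gap in which they lie separates nhr-237 from the next gene upstream, which is nhr-238, with the pooled summit 602 bp from the one gene and 683 bp from the body of the other. Among the 30 IDR regions on V it ranked 3.

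The region of nhr-238 (WBGene00021611, chrV:1628105-1629432, minus strand) at chrV:1629335-1629658 was separate from that of its neighbour, with summits 2075 bp apart. Its signal was 77.2 in the pooled list, 45.7 in replicate 1 and 31.9 in replicate 2, and the pooled summit lay 65 bp upstream of the 5' end. In each list this was less than at nhr-237. The coding sequences of nhr-237 and nhr-238 aligned with 59.0% identical bases, so the pair stands side by side without being near-identical.

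At nhr-256 (WBGene00022805, chrV:1743771-1747981, plus strand) the region chrV:1743441-1743764 had a signal of 93.9 in the pooled list, 38.3 in replicate 1 and 54.6 in replicate 2. Its summit lay 168 bp upstream of the gene. Its rank was 145 in the replicate 1 list and 35 in the replicate 2 list. At nhr-86 (WBGene00003676, chrV:2061106-2066850, minus strand) the region chrV:2066811-2067134 had 76.8, 45.2 and 34.8 in the same order, with the summit 123 bp upstream. The next gene on that side, lbp-9, which encodes a lipid-binding protein, begins 1476 bp from the summit and was outside the window.

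At nhr-12 (WBGene00003611, chrV:10082133-10084049, minus strand) the region chrV:10084089-10084412 had 76.6 in the pooled list, 41.0 in replicate 1 and 41.5 in replicate 2, 202 bp upstream of the gene. It is the one IDR region at a member that a gene outside the family could also claim, since the 5' end of R04B5.6, on the other strand, lies 913 bp from the summit. The pooled signals of nhr-238, nhr-86 and nhr-12 stand close together, from 76.6 to 77.2, and their order has no error to set it against. All 5 members were above the median of 73.9 among nuclear IDR regions, whose values run from 56.4 to 212. The authors' q-values were 0.00809 in replicate 1 for each of the 5, and in replicate 2 between 0.00498 and 0.0242.

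**Figure D1:**
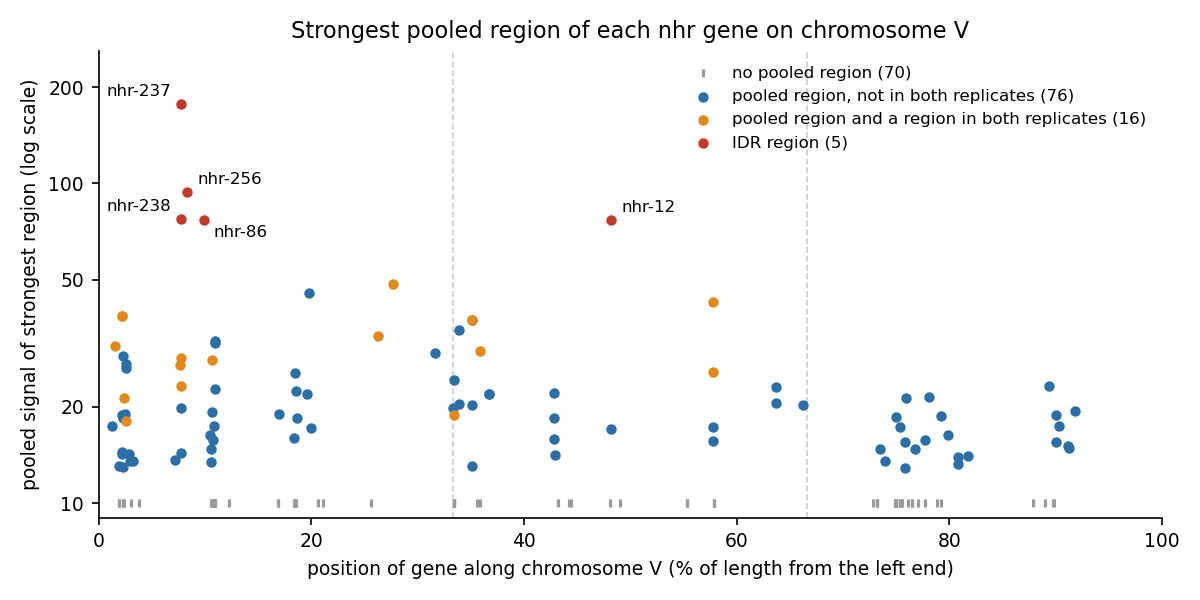
Pooled signal of the strongest region of each nhr gene on V (vertical, log scale) against the gene's position in percent of the chromosome from its left end. Points are genes, grey ticks at the bottom are the 70 genes with no pooled region (plotted at an arbitrary level), and dashed lines divide V into 3 equal lengths. Of the 5 IDR genes in red, 4 lie near the left end between 7.77 and 9.86%, and no gene of the right stretch exceeds 23.3.

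Of the 5 IDR regions at members, 4 lay close together on the left arm, with summits spread over 439551 bp, and no other IDR region lay between them. The chromosome was divided into 3 stretches of equal length to describe position. The left stretch held 78 members (46.7% of them, against 30.6% of other genes on V), the middle stretch 41 and the right stretch 48. IDR regions stood at 4 members on the left (5.13%), 1 in the middle and 0 on the right, where the Wilson interval of 0 in 48 reaches 7.41%. Of the other genes, 0.203% had one on the left, 0.911% in the middle and 0.439% on the right. Put the other way, 4 of the 8 IDR regions in the left stretch stood at a member, against 1 of 16 in the middle and 0 of 6 on the right.

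In the relaxed lists, too, members of the right stretch had the lowest shares. In the pooled list, 64.1% of members on the left (53.0 to 73.9%), 61.0% in the middle (45.7 to 74.3%) and 45.8% on the right (32.6 to 59.7%) had a region, and these intervals overlap. Other genes on V had 49.5, 46.4 and 47.8%. In replicate 1 the members' shares were 44.9, 36.6 and 29.2%, and in replicate 2 they were 24.4, 24.4 and 0%. The right stretch therefore had a region in replicate 1 at 14 of 48 members but in replicate 2 at 0 of 48, while 8.71% of the other genes there had one in replicate 2. The median pooled signal of the members with a region was 20.6 on the left, 20.5 in the middle and 15.7 on the right, against 17.8, 18.5 and 17.1 for other genes.

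The relaxed lists, in which the 5 IDR members are counted too, had regions at many more members. A pooled region lay at 97 of 167 members (58.1%, 50.5 to 65.3%), against 53.7% of all protein-coding genes and 48.2% of those on V. In replicate 1 it was 64 members (38.3%), against 32.6% and 28.9%, and in replicate 2 it was 29 members (17.4%), against 13.2% and 10.7%. Both replicate lists had a region at 21 members (12.6%, 8.37 to 18.5%), against 8.04% of all genes and 5.77% on V. When the strongest summits of the pooled list and of both replicates also had to lie within 200 bp of each other, 12 members were left (7.19%, 4.16 to 12.1%), against 4.57% and 3.12%. For each of these shares the value for V lay below the members' interval, while the values for all genes lay inside the interval except for the IDR list and for both replicate lists together, where they lay below it.

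**Figure D2:**
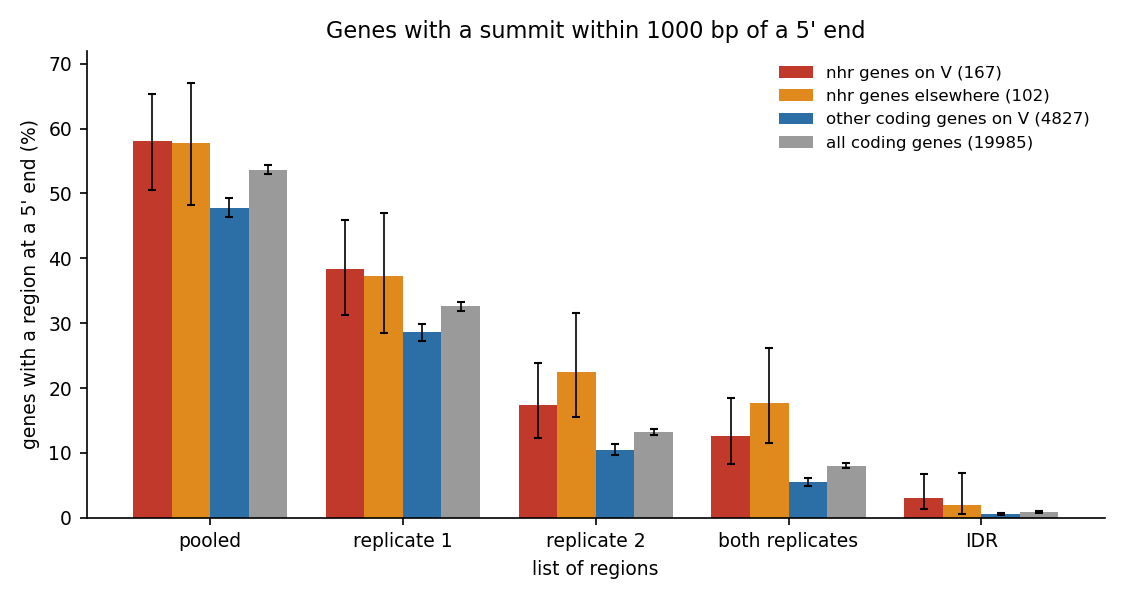
Share of genes in percent with a region summit within 1000 bp of a 5' end in each list, for nhr genes on V, nhr genes on other chromosomes, other coding genes on V and all coding genes. Bars are shares and error bars are 95% Wilson intervals. The intervals of both nhr groups overlap in every list, with 58.1% and 57.8% in the pooled list.

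The 102 nhr genes on other chromosomes had similar shares, with 57.8% in the pooled list, 37.3% in replicate 1, 22.5% in replicate 2 and 17.6% in both. IDR regions stood at 2 of them, nhr-62 on I with a pooled signal of 67.6 and nhr-255 on X with 57.2, both weaker than any of the 5 on V. Receptor genes with other names had few regions. The gene daf-12, whose receptor answers to steroid-like dafachronic acids, had 24.5 in the pooled list, 11.5 in replicate 1 and 13.8 in replicate 2, while odr-7, unc-55, fax-1 and sex-1 had no region in any list. Among genes of partners of nuclear receptors, din-1, a co-repressor of DAF-12, had 40.0, 23.5 and 20.7, and cbp-1, a histone acetyltransferase, had 33.4, 17 and 20.9. The Mediator subunit gene mdt-15 had 16.5 in the pooled list alone, and the co-repressor gene gei-8 had none. The gene daf-21 was not matched under that symbol.

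The 97 members with a pooled region shared 94 different regions, because 3 regions lay within reach of a pair of members, nhr-201 and nhr-202, nhr-148 and nhr-263, and nhr-94 and nhr-152. No list had a region at 62 members, 33 had one in the pooled list alone, and 8 had one in a replicate list but not in the pooled list. Shares over all genes for these counts are not given here, so they describe the members only. The members' pooled signal had a median of 19 (exact interval 18.0 to 21.3), where the median for all genes with a region was 18.2 and for genes on V 17.8. Of the 97, 33 ranked within the first 5000 of the pooled list, which is 19.8% of all members, against 14.5% of all genes and 11.3% on V. Within the first 1000 there were 14, for which no share over all genes is given here. Median summit distance from the 5' end was 366 bp, against 406 bp for all genes, and 50.5% of the summits lay upstream, against 60.4%. Of the 94 regions, 38 had the summit in intergenic DNA, 25 in an intron, 20 in a coding exon, 10 in an untranslated exon and 1 in an exon of a pseudogene. Only the region of nhr-150, named here after its value was seen, had a tRNA gene within 200 bp, and its pooled signal was 13.5.

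Among members without an IDR region, nhr-142 had the highest pooled signal, 48.4 at rank 320. Its value was 31.7 in replicate 1, at 97 bp upstream of the 5' end, and 25.6 in replicate 2. In replicate 2 the strongest summit lay 528 bp upstream, so the strongest regions of the replicates lay at different places. The pooled region of nhr-142 is also within reach of F44E7.9, a gene outside the family. At nhr-57, which is known as a target of the hypoxia-inducible factor HIF-1, the pooled signal was 45.5 and the replicate 1 signal 27.7, with no region in replicate 2. These are the only members apart from the IDR genes whose q-value was 0.05 or less in replicate 1, at 0.0143 and 0.0436, and in replicate 2 only the IDR genes reached that level. At nhr-209 the signal was 42.5 in the pooled list, 24.4 in replicate 1 and 18.1 in replicate 2, with the summits at 112, 110 and 47 bp inside the gene.

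The region shared by nhr-201 and nhr-202 had a pooled signal of 38.6 and lay in an intron of nhr-201, 144 bp from its 5' end. Its signal was 21.1 in replicate 1 and 17.8 in replicate 2, while the strongest replicate 1 region of nhr-202 was a different one, with 24.8. The region shared by nhr-148 and nhr-263 had 37.5 in the pooled list, 15 in replicate 1 and 19.9 in replicate 2, in an intron of nhr-148, and srh-244, a gene outside the family, is also within reach. For nhr-263 the strongest pooled summit is 949 bp away, just inside the window, and the replicate 2 summit falls outside it. At nhr-47, whose region dnj-19 shares, the summit lay 12 bp from the 5' end, with 33.3 in the pooled list, 12.9 in replicate 1 and 20.3 in replicate 2.

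The other members among the 20 with the highest pooled signal had values between 29.0 and 34.8. A region in replicate 1 but not in replicate 2 was found at nhr-135, with a pooled signal of 34.8, at nhr-225 with 32.3, at nhr-228 with 31.7 and at nhr-55 with 29.0. The reverse held at nhr-37, with 29.5 in the pooled list and 18.9 in replicate 2 alone. At nhr-15 and nhr-172, with pooled signals of 31.0 and 29.9, both replicates had a region, but the strongest ones lay at different places. The strongest summits of the 3 relaxed lists coincided within 200 bp at 3 members further down. These were nhr-96 with a pooled signal of 28.1, nhr-178 with 27.0 and nhr-207 with 25.8. In replicate 1 their signals were 11.9, 13.5 and 11.3, near the floor of 10.4 of that list.

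**Figure D3:**
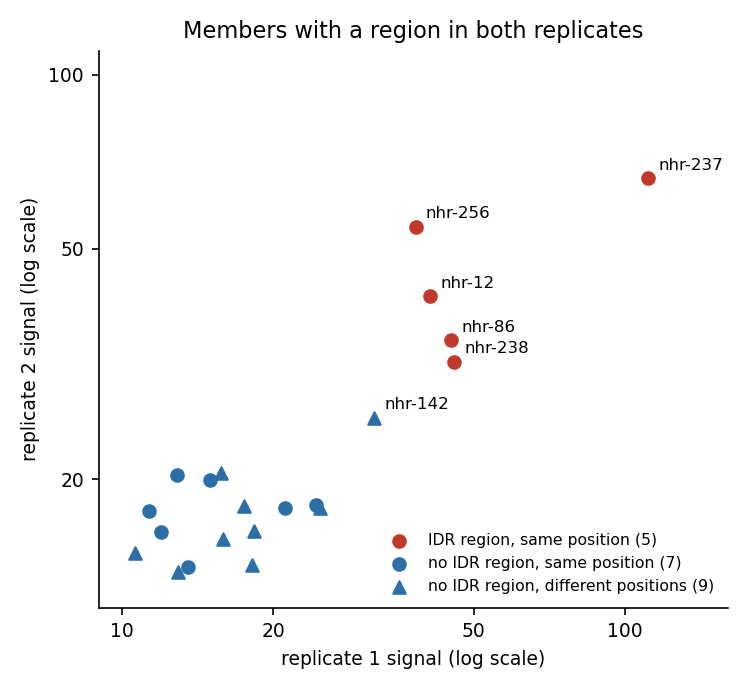
Replicate 2 signal against replicate 1 signal (both log scales) of the strongest region of each of the 21 members with a region in both replicate lists. Circles are members whose strongest summits coincide within 200 bp of each other and of the pooled summit, triangles are members where they do not, and red marks an IDR region. The 5 IDR members stand above the rest on both axes, with nhr-237 at 111 and 66.2 and nhr-142 next below them.

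Across the 21 members with a region in both replicates, the replicate signals had a Pearson correlation of 0.88 on the log2 scale and a Spearman correlation of 0.71. The 5 IDR members were kept by a test based on agreement in rank, so their agreement is in part set by that choice. Without them the values over the other 16 were 0.51 and 0.38. These are descriptions over genes, of which some share a region, and the relation rests largely on the 5. In 9 of the 21 the strongest summits did not coincide: nhr-15, nhr-202, nhr-131, nhr-155, nhr-117, nhr-110, nhr-142, nhr-42 and nhr-172. Over all protein-coding genes, 1607 had a region in both replicates, and at 914 the strongest summits coincided, a similar proportion. When any pair of summits within 200 bp was enough, 15 members had a region in both replicates. The strongest region was thus not always the same in both lists, at members as over all genes, though weaker regions could still coincide.

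Clusters were defined as runs of at least 3 members with gaps of at most 20000 bp between neighbouring members. There were 17, with 102 members, while 26 members stood in pairs and 39 alone. Within clusters 69 of 85 neighbouring members (81.2%) lay on the same strand, against 55.8% of all 4993 pairs of neighbouring genes on V. A pooled region lay at 58 of the 102 clustered members (56.9%, 47.2 to 66.1%) and at 39 of the 65 others (60.0%, 47.9 to 71.0%), and an IDR region at 3 and 2. Of 52 genes of other families that lie inside the clusters, 20 had a pooled region (38.5%, 26.5 to 52.0%) and 0 an IDR region. The intervals of clustered and other members overlapped.

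**Figure D4:**
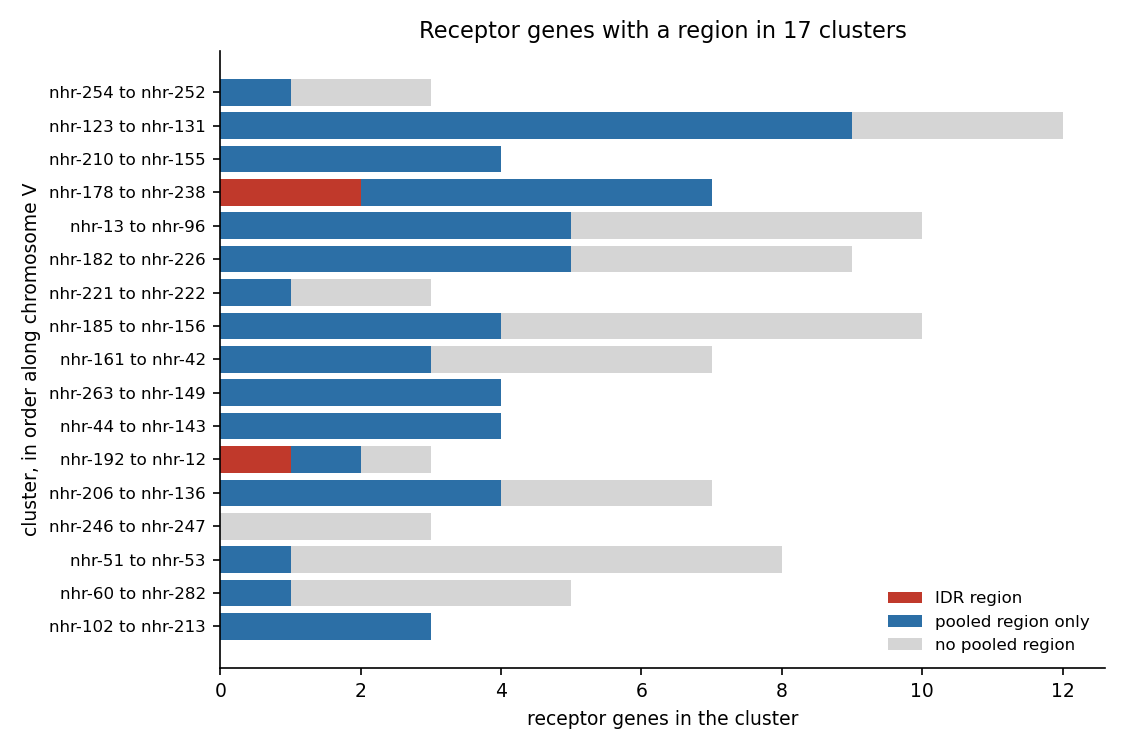
Number of receptor genes in each of the 17 clusters, in order along V from the left end at the top, divided into genes with an IDR region, genes with a pooled region but no IDR region, and genes with no pooled region. The cluster from nhr-178 to nhr-238 holds 2 IDR genes and a pooled region at all 7 genes, and the cluster from nhr-51 to nhr-53 has a pooled region at 1 of 8.

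The number of genes with a region varied between clusters, most of which hold few genes. The counts below stand beside a pooled region at 53.7% of all protein-coding genes and 48.2% of those on V. Among genes of other families inside the clusters the share was 38.5%. Whether clusters differ by more than counting error was not tested. The cluster from nhr-178 to nhr-238, 25527 bp long at chrV:1603906-1629432, had a pooled region at 7 of 7 genes, a replicate 1 region at 6, a replicate 2 region at 5 and a region in both at 5, and no other cluster had as many genes with a replicate 2 region or with a region in both. Over all protein-coding genes the shares were 53.7, 32.6, 13.2 and 8.04% in the same order. From 1 to 2 Mb on V, the stretch around this cluster, genes outside the family had a pooled region in 109 of 165 cases (66.1%). A high share there is thus not particular to the receptor genes. The strong regions of the cluster stood only at its right end. The pooled signal was 27.0 at nhr-178, 19.8 at nhr-177, 14.3 at nhr-179, 28.5 at nhr-117 and 23.3 at nhr-110, and then 177 at nhr-237 and 77.2 at nhr-238. The region counted for nhr-110 lies in a coding exon of nhr-237, 823 bp upstream of nhr-110. Coding sequences within this cluster had between 58.0 and 67.8% identical aligned bases, and IDR members at different places on V between 61.1 and 66.1%, and these ranges overlap. Global alignment gives high identity even to diverged sequences, so these values show only that the genes are not near-identical, and do not measure relatedness.

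**Figure D5:**
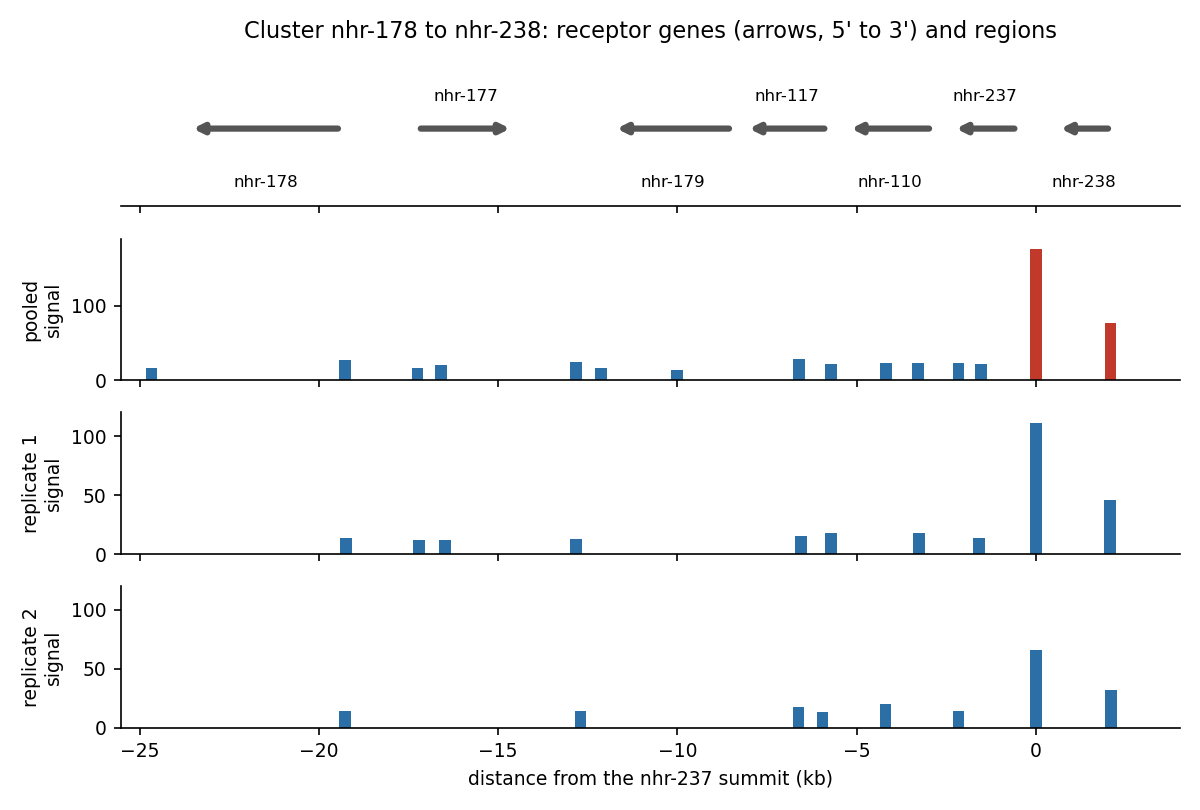
The cluster from nhr-178 to nhr-238, with genes as arrows from 5' to 3' and, under them, the summits of the pooled, replicate 1 and replicate 2 regions as bars whose height is the signal and whose width is that of the region, against the distance in kb from the nhr-237 summit. Red bars are IDR regions. The bars of nhr-237 and nhr-238 stand above all others in each of the 3 lists, at 177 and 77.2 in the pooled list.

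The cluster of nhr-192, nhr-205 and nhr-12 showed a region of each kind. The gene nhr-12 had the IDR region, nhr-205 had 17.1 in the pooled list and 10.5 in replicate 1, and nhr-192, at the other end of the cluster, had no region in any list. In the longest cluster by gene number, nhr-123 to nhr-131, 9 of 12 genes had a pooled region, led by nhr-201 and nhr-202. All 4 genes had one in the clusters nhr-210 to nhr-155, led by nhr-132 with 27.3, nhr-263 to nhr-149, and nhr-44 to nhr-143, led by nhr-195 with 22.1. In the cluster nhr-206 to nhr-136, the first 4 of 7 genes had one, with nhr-209 the strongest, and the last 3 had none.

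In 3 large clusters of the left stretch part of the genes had a pooled region, with 5 of 10 in nhr-13 to nhr-96, led by nhr-96, 5 of 9 in nhr-182 to nhr-226, led by nhr-225, and 4 of 10 in nhr-185 to nhr-156, led by nhr-189 with 25.5. It was 3 of 7 in nhr-161 to nhr-42, led by nhr-107 with 24.3. Among the clusters of 3 genes on the left, nhr-254 to nhr-252 had 1, at nhr-254 with 13.0, and nhr-221 to nhr-222 had 1, at nhr-222 with 19. The right stretch held 4 clusters. In one of them, nhr-102 to nhr-213, all 3 genes had a pooled region, led by nhr-213 with 21.3. The other 3 had lower shares than any cluster elsewhere on V. There were 0 of 3 in nhr-246 to nhr-247, 1 of 8 in nhr-51 to nhr-53, at nhr-53 with 18.6, and 1 of 5 in nhr-60 to nhr-282, at nhr-283 with 17.4. No gene in these 4 clusters had a replicate 2 region.

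Sequence that occurs more than once in the genome can hide regions, because reads from it cannot be placed, and whether the authors kept such reads is not given in the sources used here. Of the words of 36 bases near the 5' ends, the median share that occurs elsewhere in the genome was 0%, both in members with and in members without a pooled region. The mean was 1.54% with and 5.20% without, and 6.59% for other genes on V. More than 20% of the words were repeated at 1 of the 97 members with a region and at 8 of the 70 without. The part of repeated sequence in the members' missing regions was not tested.

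Some pooled regions lay near the edge of the window, among them those of nhr-263 (37.5) and nhr-15 (31.0), which are among the 20 highest members. Just inside 1000 bp lay the pooled regions of nhr-96 at 943 bp, nhr-263 at 949 bp, nhr-129 at 973 bp, and nhr-15 and nhr-262 at 980 bp. Just outside, between 1113 and 1187 bp, lay regions of nhr-164, nhr-130, nhr-127, nhr-290, nhr-187 and nhr-52, each with a pooled signal below the 20.5 of nhr-129. The regions outside the window of nhr-130 and nhr-127 are those already counted for nhr-212 and nhr-218. Members with a single annotated 5' end, for which every window has the same length, had a pooled region in 58 of 112 cases (51.8%), against 43.2% of such genes elsewhere on V and 48.4% of all such genes.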

How the data were processed

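ChIP-seq of eGFP-tagged NHR-28 in 2 replicate libraries was analysed from the region lists the authors deposited on ce11. Per the labels and the libraries' text records, regions were called on each replicate and on both together with a relaxed setting, as input for IDR. The aligner, caller and IDR threshold were not given in the sources used here. Column 7 of each deposited list was used as the authors' signal, and the q-values of the replicate lists are deposited as −log10. The lists were not rescaled.

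Genes came from Ensembl release 115 and sequence from the RefSeq WBcel235 genome. Summits were assigned within 1000 bp of protein-coding 5' ends, and clusters used gaps of up to 20000 bp. Shares have 95% Wilson intervals. Scripts used Python 3.11.15, numpy 2.4.6, pandas 2.3.3, scipy 1.17.1, Biopython 1.88 and matplotlib 3.10.9, and the assignment was tested on simulated regions. Protein identity could not be computed here, so global alignments of coding DNA took its place.

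The members and lists were chosen with earlier results of these data known. Named genes were those with an IDR region, those with summits within 200 bp in all relaxed lists, the 20 highest by pooled signal, the highest of each cluster, and members without a region in a cluster with an IDR member. Genes named outside this rule were chosen after their values were seen: those at the window edge, those that share a region or whose replicate summits differ, and the remaining genes of the nhr-178 to nhr-238 and nhr-12 clusters. Alternatives covered the window, the assignment, the cluster gap, the chromosome division, the repeat word length and the strength of regions.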

Additional observations from a re-analysis of the deposited data

How the results depend on the processing

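Of 44 alternative values, 40 kept within 1.5 times the main count, or within the counting error of a share, and 4 moved. With a window of 2000 bp, 44 members (26.3%) had a replicate 2 region instead of 29, against 20.5% of all genes. Among the 5000 strongest pooled regions alone, 33 members (19.8%) had one instead of 97, against 14.5% of all genes. Of the 21 members with a region in both replicates, 12 were left when the strongest summits had to coincide within 200 bp. When the q-value had to be 0.05 or less in each, 5 were left (2.99% of members), against 0.590% of all genes. With any pair of summits within 200 bp, a choice added after seeing the data, the count was 15 (8.98%), against 5.31% of all genes. The count of members with an IDR region was 4 (2.40%) with a window of 500 bp, against 0.650% of all genes, and 5 under each other alternative tried. The 238 strongest regions of replicate 1 alone, as many as the IDR list holds, also gave 5 members (2.99%), against 0.836% of all genes. Those of replicate 2 alone gave 5 as well, against 0.891%. No paired analysis was possible because there is 1 group.

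Depth per library is unknown, so a missing region cannot be told apart from a region below the reach of a library. The replicate 2 list is the shorter one and ends at a higher signal, 13.8 against 10.4 in replicate 1, on scales that differ. No untagged library was analysed here, and sites that attract any tagged protein were not marked.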
